A study of Danio rerio with 30 samples.

Results

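The change between 18 and 21 hours post fertilization (hpf) was followed in zebrafish embryos with a knockdown of Tbx5b. Tbx5b-deficient embryos at 21 hpf were compared with Tbx5b-deficient embryos at 18 hpf, both of the \*AB strain, with 3 libraries per group and 10 pooled embryos per library. Tbx5b was targeted with a translation-blocking *tbx5b* morpholino given at the single-cell stage. Both groups thus carried the same knockdown and were sampled at different stages. Clutch, injection day and sequencing batch are not given in the sources used here. Any difference in them cannot be told apart from stage, or from genotype where genotypes are compared. The eyes had been dissected away, and oligo dT primed cDNA of the rest of the embryo was read as single-end 50 bp reads. Tbx5a-deficient embryos (*tbx5a* morpholino), double-deficient embryos (both morpholinos) and wildtype embryos, for which the sources name no control injection, were collected at the same stages in the same way, and those 4 genotypes gave 8 groups of 3 libraries. The Tbx5b-deficient groups hold 6 of the 30 samples of the series and 6 of the 24 in this triplicate experiment. Values are FPKM, fragments scaled to transcript length and to mapped fragments, by a normalization that the sources used here do not give. The authors give 1 value per group over its 3 libraries, with a lower and an upper bound. A gene was kept when its values were marked as usable in both Tbx5b-deficient groups, it reached 1 FPKM in either group, and its listed locus spanned at least 300 bp. That left 10695 of 14648 genes.

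*tbx5b* encodes one of the paralogous zebrafish Tbx5 proteins, T-box transcription factors that act in the lateral plate mesoderm giving rise to the heart and pectoral fins, and in the retina. Between these stages an embryo is still adding somites from the presomitic mesoderm of the tail, while older somites differentiate into muscle fibres, primitive red blood cells load with haemoglobin and neural crest cells begin to form pigment. In whole-embryo RNA a gene can differ because more cells express it or because each cell holds more of its RNA, and fewer cells of a type and less RNA per cell cannot be told apart here.

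Because each group is 1 pooled value, neither the spread between libraries nor the depth of a library is known, and no p-value can be given. A gene was called changed when the absolute log2 ratio of (FPKM + 1) at 21 over 18 hpf was at least 1 and the authors' bounds of the groups did not overlap. Which confidence level the bounds stand for is not given in the sources used here. For kept genes at 10 FPKM or more in the group, the median upper bound lay 44.1% above the value at 21 hpf. It lay 44.3% above at 18 hpf. Bounds of this width part only at a ratio of 2.57 to 2.59, and genes under 10 FPKM were not counted here. Of the 5991 genes at 10 FPKM or more in either group, 5444 (90.9%) had a log2 ratio within 0.5 of 0, and the SD over these genes was 0.36. The kept gene just inside the 1 FPKM limit was *acbd4*, with 0.493 FPKM at 21 hpf and 1.001 FPKM at 18 hpf, and the gene just outside was *nt5dc1*, with 0.999 and 0.746 FPKM. The shortest kept locus, of *rpph1*, spanned 306 bp, and the longest locus left out for its length, of wu:fa10h04, spanned 287 bp. Of 36 genes at shorter loci, 18 would have met the rule, 17 of them with 1 group listed at 0.

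Tbx5b-deficient embryos held more transcripts of differentiated muscle, pigment and blood at 21 hpf than at 18 hpf. At 21 hpf, 58 genes were higher than at 18 hpf (0.542% of those kept) and 7 were lower (0.0655%). The 58 included 20 genes of skeletal muscle, 8 of pigment synthesis and 4 of the red blood cell. Their log2 ratios ran between 1.17 and 4.08 with a median of 1.81, against a median of −0.03 over all kept genes, of which 4924 (46.0%) were above 0. This median counts *mir214a*, listed at 0 at 18 hpf, at the value the pseudocount gives it. The bounds decided many cases. A further 84 genes had a log2 ratio of at least 1 at 21 hpf with overlapping bounds, and among the 142 most abundant genes, whose median log2 ratio was 0.22, no gene passed. Positions below are those listed with the values, counted from 1. The submitters' processing notes name GRCz10 and the study's methods Zv9, so the build is uncertain.

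**Figure D1:**
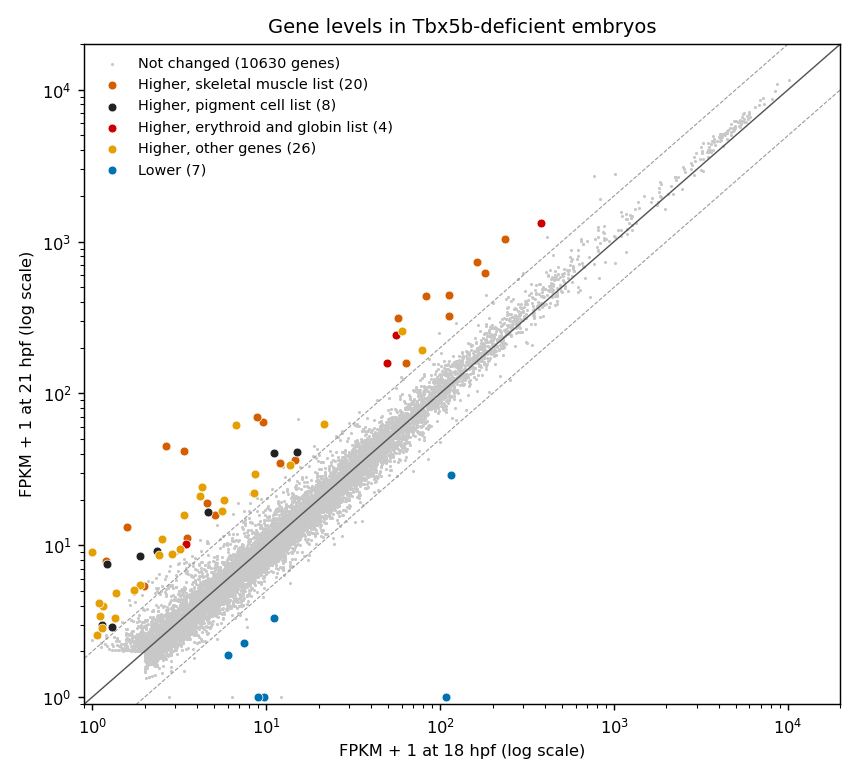
FPKM + 1 at 21 hpf (vertical) against 18 hpf (horizontal) in Tbx5b-deficient embryos, both axes logarithmic, 1 point per kept gene, with changed genes coloured by group and dashed lines at a ratio of 2. The 20 muscle, 8 pigment and 4 erythroid genes lie above the upper line at low and high levels, and 7 genes lie below the lower line.

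Genes of contracting muscle made the largest group of rises. Of the 66 kept genes on a list of skeletal muscle contractile and excitation genes, 20 rose, none fell, and 60 had a log2 ratio above 0, with a median of 0.85. The FPKM of the list summed to 14447 at 21 hpf and 6713 at 18 hpf, which were 1.495% and 0.785% of the summed FPKM of all kept genes. When both groups were scaled to the same total FPKM, 17 of the 66 rose, 55 lay above 0 and the median was 0.69.

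The largest rise of all kept genes belonged to *tnni2a.4*, a fast troponin I that inhibits contraction in the absence of calcium (chr25:30699939-30711249). It was at 43.9 FPKM at 21 hpf (bounds 22.5 to 65.4) and 1.66 FPKM at 18 hpf (bounds 0.232 to 3.08), a log2 ratio of 4.08. *tnnt3a*, the fast troponin T that ties the troponin complex to tropomyosin, was at 63.5 FPKM (35.9 to 91.2) and 8.64 FPKM (3.52 to 13.8), a log2 ratio of 2.74. The calcium-buffering parvalbumins followed the same course. *pvalb2* (chr12:17588551-17590624) was at 40.5 FPKM (19.6 to 61.4) at 21 hpf and 2.35 FPKM (0.504 to 4.196) at 18 hpf, a log2 ratio of 3.63. *pvalb4* was at 12.2 and 0.588 FPKM (log2 ratio 3.06) and *pvalb1* at 6.83 and 0.200 FPKM (log2 ratio 2.71). These paralogues resemble each other and the reads were 50 bp long, so how reads were shared between them is uncertain.

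The light chains of fast myosin were among the most abundant genes that changed. *mylpfa*, the main fast regulatory light chain, was at 1034 FPKM at 21 hpf (461 to 1607) and 234 FPKM at 18 hpf (127 to 342), a log2 ratio of 2.14. Its paralogue *mylpfb* (chr12:14970329-14972693) was at 69.03 FPKM (36.8 to 101) and 7.83 FPKM (2.17 to 13.5), a log2 ratio of 2.99. The bounds of the groups lay apart for both. The alkali light chain *mylz3* was at 434 FPKM (237 to 632) and 81.6 FPKM (45.4 to 118), a log2 ratio of 2.398. *myl1*, another alkali light chain, was at 617 FPKM (331 to 903) and 180 FPKM (104 to 256), a log2 ratio of 1.77. Heavy chains were far less abundant per kilobase. The heavy chain gene *myhz1.1* was at 18.1 FPKM at 21 hpf and 3.58 FPKM at 18 hpf, *myhz2* at 14.9 and 4.09 FPKM, and *myhz1.2* at 4.37 and 0.978 FPKM. These lie in a cluster of near-identical copies and their separate values are uncertain.

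Genes that supply the contracting fibre with energy and calcium rose as well. The muscle creatine kinases, which regenerate ATP from phosphocreatine, were at 311 FPKM at 21 hpf (168 to 454) and 56.5 FPKM at 18 hpf (32.4 to 80.6) for *ckma*, and at 733 FPKM (361 to 1105) and 161 FPKM (87.6 to 234) for *ckmb*. The corresponding log2 ratios were 2.44 and 2.18. *atp2a1*, the fast fibre pump that returns calcium to the sarcoplasmic reticulum, was at 444 FPKM (193 to 695) and 111 FPKM (56.6 to 166), a log2 ratio of 1.99. Muscle isoforms of glycolytic enzymes and the enzyme of glycogen breakdown were among the rises. *aldoab* (aldolase) was at 324 and 111 FPKM, *pgam2* (phosphoglycerate mutase) at 33.8 and 11.02 FPKM, *pygma* (glycogen phosphorylase) at 10.24 and 2.496 FPKM and *pkmb* (pyruvate kinase) at 4.05 and 0.727 FPKM, with log2 ratios between 1.53 and 1.69. Aldolase, phosphoglycerate mutase and pyruvate kinase were the 3 of 27 kept glycolytic enzymes to rise. That list had a median of 0.32 and 18 members above 0. *ak1* (adenylate kinase) at 193 and 77.2 FPKM and the thick filament associated gene *mybphb* at 158 and 62.7 FPKM rose too. So did *ldb3b* at 35.5 and 13.6 FPKM. However, these 3 and *pgam2* did not pass when the groups were scaled to the same total FPKM.

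Other muscle genes had ratios as large without passing the rule. Skeletal alpha actin *actc1b*, the most abundant of the list, was at 2691 FPKM at 21 hpf (1014 to 4368) and 767 FPKM at 18 hpf (390 to 1144), so its log2 ratio of 1.81 came with overlapping bounds. In all, 9 members of the list had a log2 ratio of at least 1 and were not called. The slow myosin heavy chain *smyhc1*, made by the earliest muscle pioneers, was at 169 and 179 FPKM, a log2 ratio of −0.08. Most regulators of the muscle programme had values near or below those at 18 hpf. Of 28 kept myogenic regulators and progenitor genes, 10 were above 0 and the median was −0.16. The 1 that rose was the heavy chain gene *myhz2*, which also stands on that list. *myog*, which drives terminal differentiation, was at 127 and 143 FPKM, and *myf5*, an early determination factor, was at 18.2 and 33.6 FPKM, a log2 ratio of −0.85 that did not pass.

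**Figure D2:**
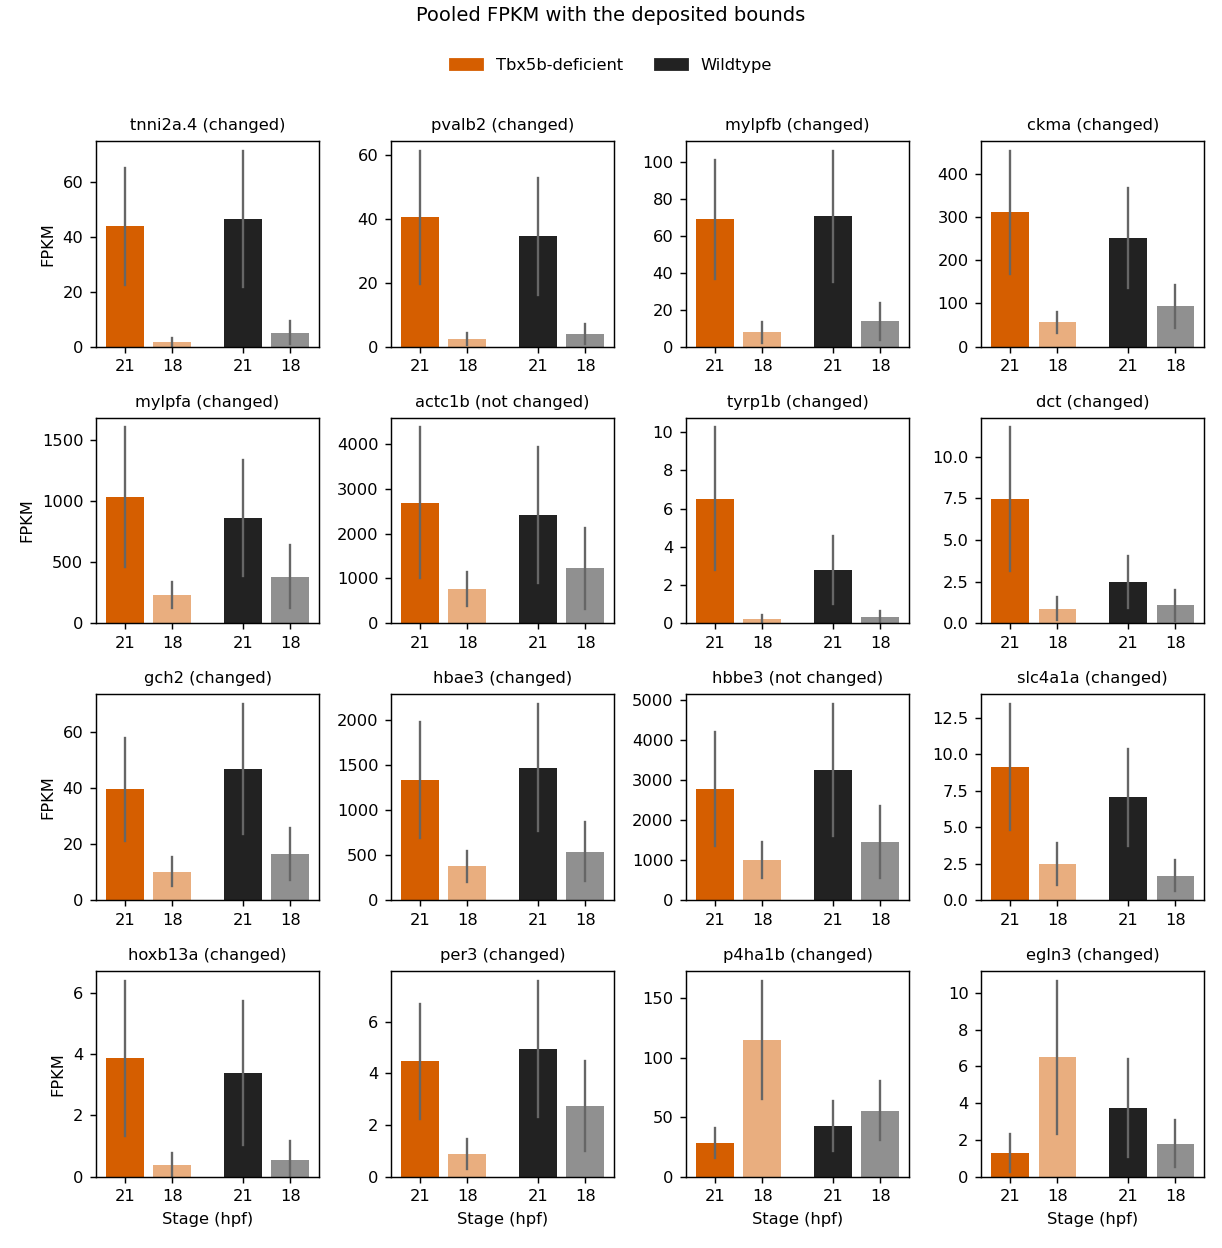
Pooled FPKM (bars) with the authors' lower and upper bounds (lines) of 16 genes in Tbx5b-deficient embryos at 21 and 18 hpf and in wildtype embryos at 21 and 18 hpf. The bounds of the Tbx5b-deficient groups are apart for 14 of the genes and overlap for *actc1b* and *hbbe3*.

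Of the 17 kept genes on a list for pigment cells and melanin synthesis, 8 rose, none fell and 15 were above 0, the median log2 ratio being 1.17. When both groups were scaled to the same total FPKM, 6 rose, *pts* and *pmelb* no longer passing, and 14 were above 0 with a median of 1.12. Melanin enzymes led the list. *tyrp1b*, the tyrosinase-related protein (chr1:18639866-18653113), was at 6.52 FPKM at 21 hpf (2.79 to 10.3) and 0.216 FPKM at 18 hpf (0 to 0.446), a log2 ratio of 2.63. *dct*, dopachrome tautomerase (chr9:53788137-53813085), was at 7.45 FPKM (3.14 to 11.8) and 0.886 FPKM (0.197 to 1.58), a log2 ratio of 2.16. Melanosome genes changed alongside the enzymes. *slc45a2*, a melanosome transporter, was at 8.17 and 1.37 FPKM, and the fibril protein genes *pmela* and *pmelb* were at 15.7 and 3.66 FPKM and at 1.92 and 0.301 FPKM. Genes of the yellow and silvery pigment cells were higher too. *gch2*, the first enzyme of pteridine synthesis in xanthophores, was at 39.4 FPKM (21.0 to 57.9) and 10.1 FPKM (4.94 to 15.2), *pts*, the next enzyme of that route, at 40.0 and 13.99 FPKM, and *pnp4a*, a purine enzyme of iridophores, at 2.001 and 0.138 FPKM. *sprb*, a sepiapterin reductase of the same pteridine chemistry that was on no list, was at 1.86 and 0.140 FPKM and passed the rule. The tyrosinase gene *tyr*, at 5.06 and 1.32 FPKM, and the melanocyte regulator *mitfa*, at 7.62 and 3.61 FPKM, had overlapping bounds. The most abundant members, the purine synthesis genes *paics* at 921 and 791 FPKM and *gart* at 151 and 128 FPKM, were not called, and among members at 10 FPKM or more the median log2 ratio was 0.42.

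Melanin genes are also used by the retinal pigment layer, and the eyes had been removed, so markers of the eye were read beside them. The 30 genes on a list of retinal field transcription factors summed to 135 FPKM at 21 hpf and 114 FPKM at 18 hpf in Tbx5b-deficient embryos, against 112 and 111 FPKM in wildtype embryos. No retinal gene was listed at 0 in either group, 20 of 30 were higher at 21 hpf in Tbx5b-deficient embryos and 16 of 30 in wildtype embryos, and none of the 20 that were kept passed the rule. The list had a median log2 ratio of 0.37, against 0.00 in wildtype embryos. The 51 lens crystallin and lens genes summed to 50.2 and 49.9 FPKM in Tbx5b-deficient embryos, with 19 and 18 of them listed at 0. At 21 hpf *dct* was at 7.45 FPKM in Tbx5b-deficient and 2.46 FPKM in wildtype embryos, *tyrp1b* at 6.52 and 2.78 FPKM and *pmela* at 15.7 and 7.97 FPKM. The bounds of these groups overlapped for each gene. At that stage *dct* was at 3.84 FPKM in Tbx5a-deficient and 3.93 FPKM in double-deficient embryos. *tyrp1b* was at 4.60 and 5.98 FPKM there and *pmela* at 10.3 and 11.8 FPKM. The part of eye tissue left after dissection in these values was not tested.

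Blood genes increased in abundance at the level of the haemoglobins. Of 33 kept genes on a list of primitive erythroid regulators and embryonic globins, 4 rose, none fell and 22 were above 0, with a median of 0.34. As deposited, the median was 0.49 in wildtype, 0.33 in Tbx5a-deficient and 0.41 in double-deficient embryos. When both Tbx5b-deficient groups were scaled to the same total FPKM, 4 rose and 20 were above 0, with a median of 0.18. Under that scaling the median was 0.23 in wildtype, 0.48 in Tbx5a-deficient and 0.62 in double-deficient embryos. The list summed to 5667 FPKM at 21 hpf and 2271 FPKM at 18 hpf. The embryonic alpha globin *hbae3* (chr3:54891994-54893165) was at 1333 FPKM (690 to 1976) and 377 FPKM (205 to 550), a log2 ratio of 1.82. Its paralogue *hbae1* was at 159 FPKM (90.6 to 227) and 48.8 FPKM (24.7 to 72.9), a log2 ratio of 1.68. A beta globin listed as si:ch211-5k11.12, which RefSeq names *hbbe1.3*, was at 240 FPKM (129 to 351) and 54.96 FPKM (29.8 to 80.1), a log2 ratio of 2.11. Embryonic globin genes lie in clusters of similar copies, and the division of reads between them is uncertain. *slc4a1a*, the anion exchanger of the red cell membrane, was at 9.13 FPKM (4.81 to 13.4) and 2.46 FPKM (1.01 to 3.92), a log2 ratio of 1.55. *rhag*, an ammonium channel of the red cell, lay outside the list and rose, at 7.81 and 1.89 FPKM. The most abundant beta globin, *hbbe3*, was at 2776 FPKM (1359 to 4194) and 1005 FPKM (550 to 1459), and its log2 ratio of 1.47 came with overlapping bounds. Of the haem enzymes, *alas2* was at 32.3 and 16.6 FPKM and *urod* at 74.4 and 33.0 FPKM, neither of which passed. The regulators *gata1a*, at 7.11 and 5.23 FPKM, and *tal1*, at 17.9 and 24.8 FPKM, had log2 ratios of 0.38 and −0.45.

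Among the genes that rose were some of ion and water transport, grouped here after their values were seen, of which 1 stood on a list for such tissues. *atp1a1a.2*, a sodium pump alpha subunit (chr1:1641563-1649040), was at 23.4 FPKM at 21 hpf (13.4 to 33.3) and 3.28 FPKM at 18 hpf (1.53 to 5.02), a log2 ratio of 2.51. It was the 1 of 29 kept genes for pronephros and intermediate mesoderm to rise, and that list had a median of −0.12. si:ch211-139a5.9, which RefSeq names *fxyd2*, a regulatory subunit of the same pump, was at 20.0 and 3.15 FPKM. A potassium channel locus listed under several names, kcnj1a.2,kcnj1a.4,kcnj1a.5, was at 7.67 and 1.44 FPKM. The water channels *aqp1a.1* and *aqp3a* were at 28.7 and 7.62 FPKM and at 15.9 and 4.56 FPKM. Among ionocytes, the salt-transporting cells of the skin, 8 of 11 kept genes were above 0 with a median of 0.38, and none passed. The carbonic anhydrase gene *ca15a*, at 15.07 and 5.43 FPKM, came nearest.

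Several single genes of other kinds rose. *hoxb13a*, a posterior Hox gene (chr3:23523685-23525284), was at 3.86 FPKM at 21 hpf (1.33 to 6.39) and 0.373 FPKM at 18 hpf (0 to 0.772), a log2 ratio of 1.82. *per3*, a period gene of the circadian clock (chr11:39694918-39750673), was at 4.47 FPKM (2.24 to 6.70) and 0.892 FPKM (0.312 to 1.47), a log2 ratio of 1.53. It was the 1 of 29 circadian genes to do so, their median being 0.01, while *per2* at 3.89 and 1.61 FPKM and *cry1a* at 5.55 and 2.47 FPKM had overlapping bounds. *tgm2a*, a protein-crosslinking transglutaminase, was at 14.8 and 2.39 FPKM. The muscle genes *nmrk2*, a nicotinamide riboside kinase at 18.9 and 4.69 FPKM, *murcb*, a caveolar protein of muscle at 21.0 and 7.51 FPKM, *hhatla* at 32.9 and 12.7 FPKM and *myoz1b*, a Z-disc myozenin at 9.99 and 1.52 FPKM, were on no list. Of the 58 genes that rose, 21 stood outside every list. The uncharacterized wu:fc46h12 was at 60.8 FPKM (30.3 to 91.4) and 5.69 FPKM (1.93 to 9.46), a log2 ratio of 3.21. MGC173646, which the RefSeq table did not match, was at 257 and 59.3 FPKM. Its listed locus (chr3:54868060-54868837) lies between those of the globin genes *hbae1* and si:ch211-5k11.12, and whether it belongs with them was not settled here. *mir214a*, a microRNA at a locus shared by 3 genes, was at 8.10 FPKM at 21 hpf (6.75 to 9.45) and was listed at 0 at 18 hpf and in the 6 groups of the other genotypes, so no ratio is given.

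The 7 genes that were lower at 21 hpf belonged to none of the lists. The most abundant protein-coding one was *p4ha1b*, a subunit of the prolyl 4-hydroxylase that modifies collagen chains (chr17:20127567-20147291), at 28.1 FPKM at 21 hpf (15.6 to 40.6) and 115 FPKM at 18 hpf (65.2 to 164), a log2 ratio of −1.99. *egln3*, a prolyl hydroxylase that marks hypoxia-inducible factor for breakdown (chr17:9755934-9773993), was at 1.28 FPKM (0.261 to 2.31) and 6.49 FPKM (2.34 to 10.65), a log2 ratio of −1.71. Both enzymes hydroxylate proline. *itln1*, an intelectin that binds microbial sugars, was at 0.895 and 5.03 FPKM, and the long noncoding RNA si:dkey-85k7.7 was at 2.34 and 10.1 FPKM, with log2 ratios of −1.67 and −1.74. The other 3 were microRNAs listed at 0 at 21 hpf, at loci shared with other genes. *mirlet7j* was at 107 FPKM at 18 hpf (65.6 to 148), *mir10c* at 8.75 FPKM (0.464 to 17.0) and *mir133a-1* at 7.95 FPKM (1.71 to 14.2).

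Of these 7 genes, 2 were also called lower in Tbx5a-deficient embryos, none in double-deficient embryos and 1 in wildtype embryos. The shared calls were all microRNAs listed at 0 at 21 hpf, *mirlet7j* and *mir133a-1* in Tbx5a-deficient and *mir10c* in wildtype embryos. The 4 genes with values above 0 in both Tbx5b-deficient groups were called in no other genotype. *p4ha1b* was at 42.8 and 76.2 FPKM at 21 and 18 hpf in Tbx5a-deficient embryos, at 37.6 and 44.0 FPKM in double-deficient embryos and at 42.6 and 55.5 FPKM in wildtype embryos, so its ratio was below 0 throughout. The Tbx5b-deficient embryos had the lowest value at 21 hpf and the highest at 18 hpf. *egln3* was at 4.52 and 8.21 FPKM in Tbx5a-deficient embryos, at 7.62 and 2.08 FPKM in double-deficient embryos and at 3.75 and 1.80 FPKM in wildtype embryos, so its ratio lay on either side of 0. The collagen chaperone *serpinh1b*, at 434 and 722 FPKM in Tbx5b-deficient embryos, had a log2 ratio of −0.73. Collagen genes themselves gave no call among 19 kept, and *col1a1a* was at 124 and 60.6 FPKM, a log2 ratio of 1.02 with overlapping bounds.

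Genes of the growing tail end had values below those at 18 hpf without passing the rule. Of 34 kept segmentation clock and presomitic mesoderm genes, none was called, 5 were above 0 and the median was −0.45, against −0.03 over all kept genes. *msgn1*, a regulator of presomitic mesoderm, was at 65.6 FPKM at 21 hpf and 122 FPKM at 18 hpf, the tail mesoderm T-box gene *tbx16* at 10.5 and 19.7 FPKM, and the protocadherin gene *pcdh8* at 6.97 and 16.5 FPKM. The caudal homeobox gene *cdx4* was at 46.8 and 98.9 FPKM and the ligand gene *wnt8a* at 1.43 and 4.24 FPKM, with log2 ratios of −1.06 and −1.11. Under scaling to the same total FPKM, *wnt8a* passed as lower, 2 members were above 0 and the median was −0.60.

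Hox, notochord and signalling lists also had medians below 0. The 48 kept Hox genes had a median log2 ratio of −0.37 with 10 above 0, and *hoxb1b*, an anterior member, was at 35.2 and 62.1 FPKM. Some group 13 genes, the most posterior class, had ratios above 0. *hoxb13a* rose as given above, while *hoxa13a* at 5.44 and 1.42 FPKM and *hoxc13a* at 17.2 and 9.22 FPKM did not pass. Notochord genes (16 kept, 5 above 0, median −0.26), hedgehog ligands, receptors and targets (24 kept, 2 above 0, median −0.25), Fgf ligands and feedback targets (29 kept, 5 above 0, median −0.22) and motile cilia genes (36 kept, 7 above 0, median −0.27) held no called gene. *fgf8a*, a ligand of the tail and midbrain-hindbrain organizer, was at 9.15 and 16.6 FPKM. The lists for Bmp genes (40 kept, median −0.04) and retinoic acid genes (27 kept, median −0.01) stood close to all kept genes.

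**Figure D3:**
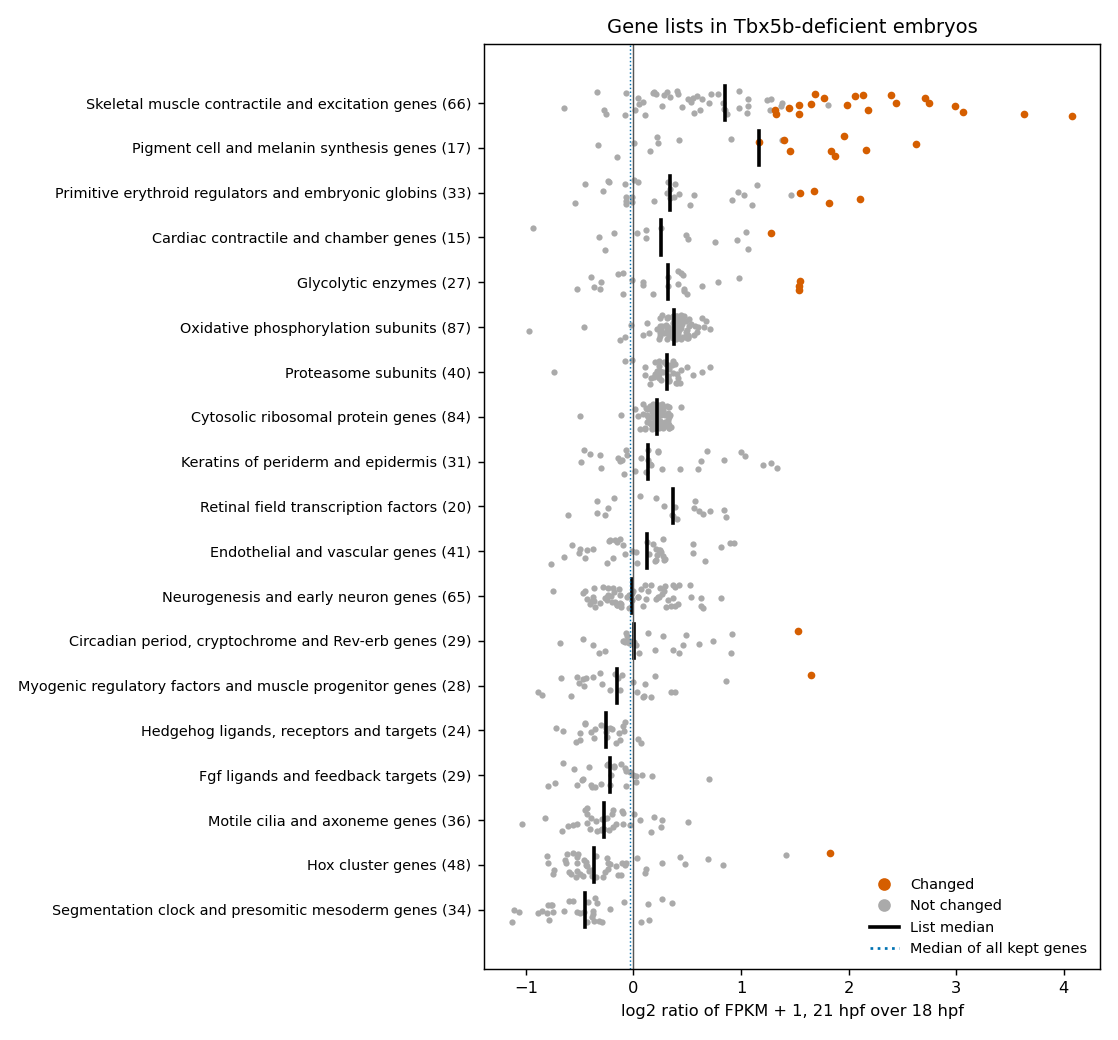
Log2 ratio of (FPKM + 1) at 21 over 18 hpf in Tbx5b-deficient embryos for the kept members of 19 gene lists, 1 point per gene, with changed genes in orange, list medians as black bars and the median of all kept genes as a dotted line. Pigment and skeletal muscle lists sit farthest right, with medians of 1.17 and 0.85, and the presomitic mesoderm list farthest left, with −0.45.

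Genes of the heart, vessels and fin field gave 1 call. The targeted gene *tbx5b* (chr5:22648482-22657915) was at 0.151 FPKM at 21 hpf (0 to 0.344) and 0.164 FPKM at 18 hpf (0 to 0.372), under the limit of 1 FPKM. A morpholino of this kind blocks translation and leaves the transcript, so this value checks no label. Its paralogue *tbx5a* (chr5:71474531-71504895) was at 1.28 FPKM (0.276 to 2.29) and 0.982 FPKM (0.288 to 1.68), a log2 ratio of 0.21. Of 15 kept cardiac contractile and chamber genes, *mybpc3*, the cardiac myosin binding protein C, rose, at 2.301 and 0.358 FPKM. The list had 11 members above 0 and a median of 0.25, or 8 above 0 and 0.13 under scaling to the same total. *myl7*, the regulatory light chain of the heart tube, was at 51.6 and 24.1 FPKM, a log2 ratio of 1.07 with overlapping bounds. The 19 kept cardiac progenitor factors had a median of −0.18 and no call. *hand2* was at 14.01 and 18.8 FPKM, and *gata4* at 1.62 and 3.57 FPKM.

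The 19 kept T-box and fin field genes had a median of −0.29 with 3 above 0. *fgf24*, a ligand of the pectoral fin field, was at 1.16 and 1.12 FPKM and *fgf10a*, which acts downstream of it, at 3.92 and 4.19 FPKM, so the fin signals were low and nearly level. The 41 kept endothelial and vascular genes had a median of 0.12, or −0.02 under scaling to the same total, and none passed. The tight junction gene *cldn5b* was at 14.2 and 6.94 FPKM and *etv2*, an early regulator of the endothelial lineage, at 30.4 and 41.3 FPKM. A list of 16 genes was put together here, mostly from genes that the study discusses, *tbx5a*, *tbx5b* and *fgf24* included. Of these, 15 were kept and 2 rose, *pvalb2* and *mybphb*, with a median of 0.21. zgc:101853, which RefSeq names *aimp1b*, stood on the list but is not named by the study. Some genes that the study discusses were left off, among them *tyrp1b*, which rose, and *krt91*, which did not pass. Several of the listed genes had been picked by the study from these samples, so the list is not independent evidence. Its heat shock gene *hsp90aa1.2* was at 63.8 and 76.2 FPKM and its cathepsin gene *ctsc* at 206 and 338 FPKM, and neither passed.

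Lists of genes that every cell uses had medians between 0.12 and 0.38, which were smaller under scaling to the same total FPKM. The 87 kept subunits of oxidative phosphorylation had a median log2 ratio of 0.38 with 82 above 0, and 0.20 with 80 above 0 when both groups were scaled to the same total FPKM. For the 84 cytosolic ribosomal protein genes the median was 0.22 with 82 above 0, and 0.05 with 61 above 0 under that scaling. They made up 43.3% of the summed FPKM of all kept genes at 21 hpf and 41.8% at 18 hpf. Scaling to the total thus takes out part of their own change. Proteasome subunits (40 kept) had medians of 0.31 and 0.14. The total FPKM over all genes was 968416 at 21 hpf and 859057 at 18 hpf, a ratio of 1.13, and scaling it away moved the median of all kept genes to −0.18. DNA replication and mitosis genes (93 kept, median 0.12), keratins (31 kept, 0.14), yolk layer lipid carriers (33 kept, 0.11) and heat shock genes (46 kept, 0.12) were above 0 as deposited and just below 0 under that scaling. None of these lists held a called gene. Genes of the p53 response, a known reaction to morpholino injection, had 11 of 30 above 0 and a median of −0.10. Neurogenesis genes (65 kept, median −0.02) and neural crest specifiers (26 kept, −0.12) were near all kept genes.

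The same comparison of stages in the other genotypes shares no libraries with the Tbx5b-deficient groups. Tbx5a-deficient embryos had 81 genes higher (0.757%) and 11 lower (0.103%) at 21 hpf of 10706 kept. Double-deficient embryos had 110 higher (1.02%) and 9 lower (0.0836%) of 10769, and wildtype embryos 36 higher (0.337%) and 5 lower (0.0468%) of 10688. The genes that rose in Tbx5b-deficient embryos moved the same way elsewhere. Of the 58, 56 had a log2 ratio above 0 in Tbx5a-deficient, 57 in double-deficient and 57 in wildtype embryos, with medians of 1.68, 2.06 and 1.43. Their median in Tbx5b-deficient embryos, 1.81, was set by the choice of genes. They shared 26 calls with wildtype embryos, which was 44.8% of the Tbx5b-deficient list and 72.2% of the wildtype list. With Tbx5a-deficient embryos they shared 42 (72.4% and 51.9%), and with double-deficient embryos 45 (77.6% and 40.9%). A core of 25 genes, all higher, was called in every genotype. It held *tnni2a.4*, *tnnt3a*, *mylpfb*, the 3 parvalbumin genes, the 3 heavy chain genes *myhz1.1*, *myhz1.2* and *myhz2*, *mybpc3*, *tyrp1b*, *rhag*, *atp1a1a.2*, *aqp3a* and wu:fc46h12.

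A call was made in Tbx5b-deficient embryos and in no other genotype for 15 genes, 11 higher and 4 lower. Whether their change differed between genotypes was not tested, and most of the 11 had ratios above 0 elsewhere, 9 in Tbx5a-deficient, 10 in double-deficient and 10 in wildtype embryos. *mybphb*, 1 of the 11 higher, was at 158 and 62.7 FPKM in Tbx5b-deficient embryos, against 104 and 132 FPKM in Tbx5a-deficient, 160 and 119 FPKM in double-deficient and 138 and 88.2 FPKM in wildtype embryos at 21 and 18 hpf. Conversely, 7 genes were called in wildtype embryos and another genotype and not in Tbx5b-deficient embryos. Among them were the sodium pump beta subunit *atp1b1b*, at 19.6 and 9.06 FPKM in Tbx5b-deficient and 26.5 and 6.94 FPKM in wildtype embryos, and *ceacam1*, at 5.23 and 1.66 FPKM and at 7.72 and 1.22 FPKM.

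Across genes, the log2 ratios of Tbx5b-deficient embryos followed those of wildtype embryos more closely than those of the other genotypes. Pearson's r was 0.74 with wildtype over 10557 genes, 0.33 with Tbx5a-deficient over 10574 and 0.31 with double-deficient over 10577, and Spearman's rho was 0.69, 0.05 and 0.02. The points are genes of the same pooled groups and are not independent. Total FPKM at 21 over 18 hpf was 1.13 in Tbx5b-deficient and 1.205 in wildtype embryos. It was 0.828 in Tbx5a-deficient and 0.814 in double-deficient embryos. Differences in clutch, injection day or batch cannot be told apart from genotype, and their part in these correlations was not tested. The rank correlations of the last pair of genotypes stood near 0 although the genes that rose most were largely shared. The median absolute difference in log2 ratio was 0.15, 0.31 and 0.30. Log2 ratios lay at least 1 above those of wildtype for 11 genes and at least 1 below for 27. Only genes kept in both genotypes were compared, which leaves out genes such as *mir214a* that were listed at 0 elsewhere. Among them, the ranges that the bounds allow the ratios were apart only for microRNAs. These were 1 with wildtype, 2 with Tbx5a-deficient and 3 with double-deficient embryos.

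**Figure D4:**
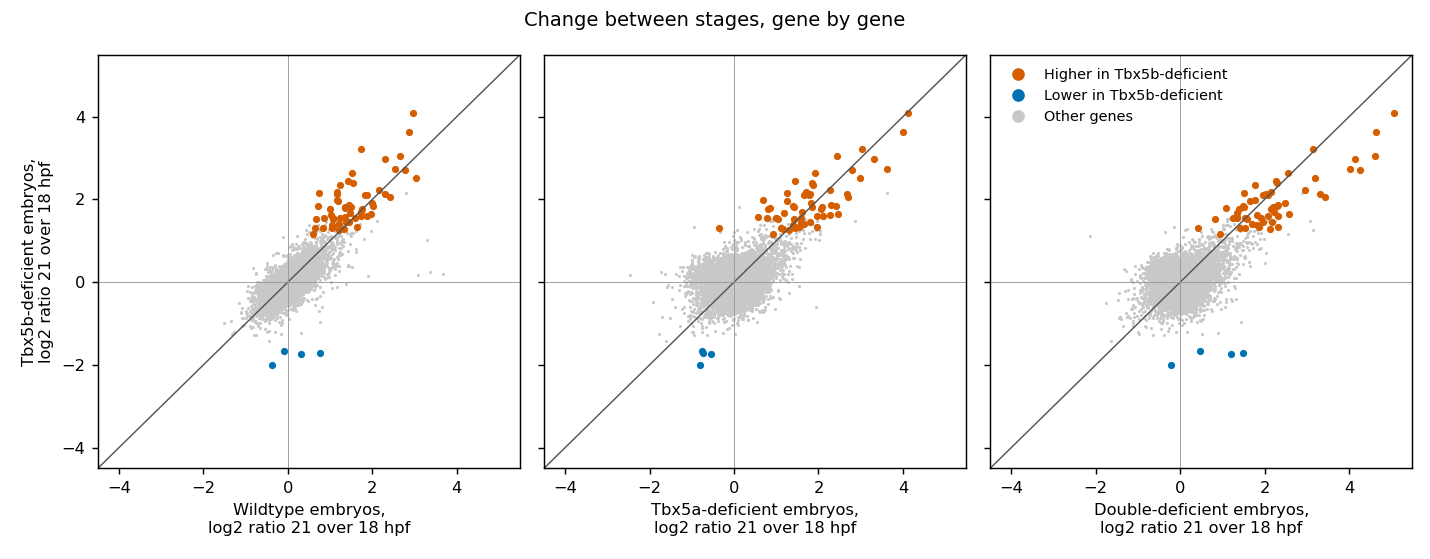
Log2 ratio at 21 over 18 hpf in Tbx5b-deficient embryos (vertical) against that in wildtype, Tbx5a-deficient and double-deficient embryos (horizontal, 1 panel each), 1 point per gene. Points follow the diagonal with wildtype (r = 0.74) and form a cloud with an upper right arm in the other panels (r = 0.33 and 0.31).

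Genes were ranked by their distance from wildtype among those at 10 FPKM or more in a Tbx5b-deficient or wildtype group. Those with ratios farthest above wildtype included several of muscle and the pigment gene *pmela*. The pigment gene *dct*, under that limit, had a log2 ratio of 2.16 against 0.73 in wildtype embryos. *tnni2a.4* was at 43.9 and 1.66 FPKM in Tbx5b-deficient embryos at 21 and 18 hpf, against 46.7 and 5.16 FPKM in wildtype embryos. *ckma* was at 311 and 56.5 FPKM against 251 and 93.7 FPKM, and *ckmb* at 733 and 161 FPKM against 584 and 262 FPKM. wu:fc46h12 was at 60.8 and 5.69 FPKM against 63.9 and 18.6 FPKM. For *tnni2a.4*, *ckma*, *ckmb* and wu:fc46h12 the value at 18 hpf was lower in Tbx5b-deficient than in wildtype embryos. Their log2 ratios differed from wildtype by 1.13, 1.03, 1.03 and 1.48. The bound ranges of these ratios overlapped, so the difference was not beyond the authors' bounds. At 18 hpf these genes were also below wildtype in Tbx5a-deficient and double-deficient embryos. There *tnni2a.4* was at 1.89 and 1.66 FPKM, *ckma* at 85.4 and 83.7, *ckmb* at 194 and 207 and wu:fc46h12 at 6.25 and 7.47 FPKM. The genes farthest below wildtype, under the same limit, included noncoding RNAs. *rpph1*, the RNA of ribonuclease P, was at 3.97 and 3.31 FPKM against 58.9 and 3.68 FPKM in wildtype embryos. *rn7sk*, a regulatory RNA of transcription elongation, was at 52.6 and 44.5 FPKM against 512 and 48.5 FPKM. At 21 hpf in Tbx5a-deficient and double-deficient embryos *rpph1* was at 3.91 and 4.92 FPKM and *rn7sk* at 41.3 and 70.5 FPKM. Wildtype alone was thus high at that stage. At 18 hpf the highest values were those of Tbx5a-deficient embryos, 14.3 FPKM for *rpph1* and 139 FPKM for *rn7sk*. The locus of *rn7sk* is shared by 17 genes, and its wildtype bounds at 21 hpf were 0 to 1939. Both RNAs are made without poly(A) tails, the libraries were primed with oligo dT, and the part of this in the values was not tested. The neuronal surface gene *thy1* was at 62.9 and 48.7 FPKM against 104 and 35.7 FPKM in wildtype embryos.

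Muscle and pigment lists had medians above 0 in every genotype, while the sign of the ribosomal list differed between genotypes. The skeletal muscle median was 0.85 in Tbx5b-deficient embryos, 0.81 in Tbx5a-deficient, 1.003 in double-deficient and 0.68 in wildtype embryos, and the pigment medians were 1.17, 0.95, 0.94 and 0.72. Presomitic mesoderm medians were −0.45, −0.53, −0.56 and −0.37 in the same order. Ribosomal protein genes, by contrast, had medians of 0.22 in Tbx5b-deficient, −0.40 in Tbx5a-deficient, −0.46 in double-deficient and 0.29 in wildtype embryos. Total FPKM at 21 over 18 hpf was 1.13 in Tbx5b-deficient, 0.828 in Tbx5a-deficient, 0.814 in double-deficient and 1.205 in wildtype embryos. After scaling to the same total the ribosomal medians were 0.05, −0.13, −0.16 and 0.02 in that order. This scaling takes out part of the change of these genes, which held 43.3% of the summed FPKM at 21 hpf in Tbx5b-deficient embryos. Oxidative phosphorylation medians under that scaling were 0.20, 0.02, 0.06 and 0.04, and their differences were not tested.

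**Figure D5:**
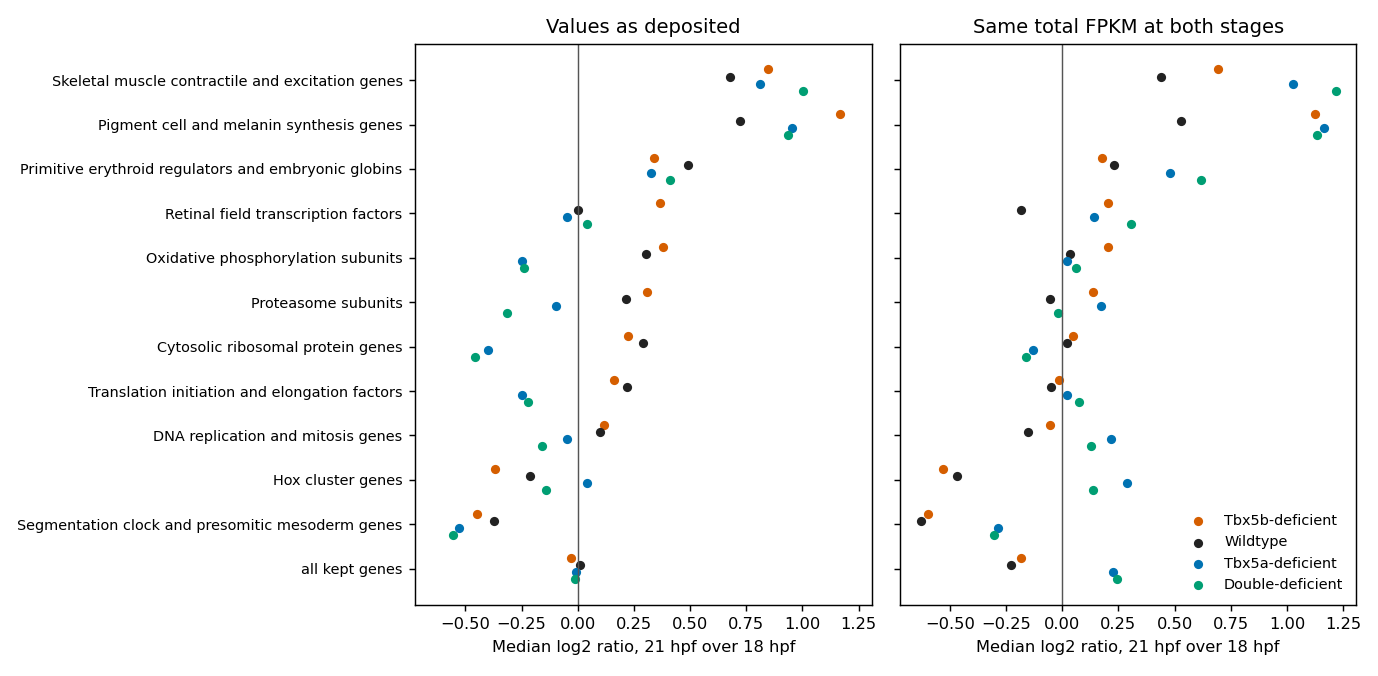
Median log2 ratio at 21 over 18 hpf of 11 gene lists and of all kept genes in Tbx5b-deficient, Tbx5a-deficient, double-deficient and wildtype embryos, with FPKM as deposited (left) and after scaling both stages to the same total FPKM (right). Muscle and pigment medians stay above 0 in all genotypes on both sides, and the ribosomal medians of −0.40 and −0.46 move to −0.13 and −0.16.

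A preliminary experiment holds 1 library of Tbx5b-deficient embryos per stage, from 10 whole embryos with eyes, in tables processed separately for each stage, so its values are set side by side and not tested. Of the 58 genes that rose, 43 were found by name in both tables, and 42 of these were higher at 21 hpf. All 42 had bounds apart, but the share of all matched genes with bounds apart was not counted. The median log2 ratio of the 43 was 2.75, against 0.20 over all 8092 matched genes, of which 66.3% were above 0. *tnni2a.4* was at 292 FPKM at 21 hpf and 2.21 FPKM at 18 hpf there, and *dct* at 27.3 and 7.39 FPKM. The exception was *nme2b.2*, a nucleoside diphosphate kinase, at 81.5 and 757 FPKM in the preliminary libraries and 61.7 and 20.4 FPKM in the triplicate groups. Of the genes that were lower, 3 could be matched. *p4ha1b* was at 91.7 and 36.6 FPKM and *egln3* at 7.33 and 1.24 FPKM, both higher at 21 hpf in the preliminary libraries and lower at 21 hpf in the triplicate groups, and *itln1* was lower in both.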

How the data were processed

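Poly(A) RNA of pooled \*AB embryos, with the eyes removed in the triplicate experiment, was sequenced by the study and processed by its authors, whose submitters' notes name TopHat2 2.1.0 and Bowtie2 2.2.5.0. The deposited values are FPKM with lower and upper bounds, 1 value per gene and group, made by the authors with Cuffdiff from 3 libraries. Their normalization, the strand used in counting and library depth are not given in the sources used here. The 12 columns of preliminary wildtype and Tbx5a-deficient values were not used.

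From these, log2((FPKM + 1)/(FPKM + 1)) at 21 over 18 hpf was computed with Python 3.11.15, pandas 2.3.3 and numpy 2.4.6 and plotted with matplotlib 3.10.9. The rule for changed genes was tested on simulated data whose noise was set from the deposited bounds. That gives no error rate for real libraries. With pooled values no test over libraries could be fitted. Names were matched to RefSeq (GRCz12tu, coordinates not used) for 10531 kept genes (98.5%). Members and the 40 gene lists were chosen with earlier results of these data known. Genes named were the 15 largest rises and falls, called genes at 10 FPKM or more and called members. The most abundant and extreme members of each list could be named too. So could the 16 genes of the list drawn from the study, *tbx5a* and *tbx5b* included. The same held for the 10 genes farthest above and below wildtype among those at 10 FPKM or more in a Tbx5b-deficient or wildtype group. Not all of these are given with values in the text, *sox7*, *hhex* and *cox6b1* among those left out. Others, such as *rhag*, *sprb*, *myoz1b*, *myog*, *myf5*, *smyhc1*, *cdx4*, *wnt8a*, *tyr*, *mitfa*, *alas2*, *urod*, *gata1a*, *tal1*, *per2*, *cry1a*, *hoxa13a*, *atp1b1b*, *ceacam1*, *hand2*, *gata4*, *fgf10a*, the kcnj1a.2,kcnj1a.4,kcnj1a.5 locus, *gart* and the genes at the limits of the rule, were picked after their values were seen. Alternatives were another pseudocount, FPKM limit, locus length or scaling, and no use of bounds.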

Additional observations from a re-analysis of the deposited data

Results flagged for a closer look

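Among genes kept in both genotypes compared, only microRNA loci had ratios whose bound ranges lay apart between Tbx5b-deficient embryos and another genotype. *mir3906* was at 24.7 FPKM at 21 hpf and 14.5 FPKM at 18 hpf in Tbx5b-deficient embryos, a difference of 10.22 FPKM. It was listed at 0 at 21 hpf and at 8.35, 8.39 and 7.93 FPKM at 18 hpf in Tbx5a-deficient, double-deficient and wildtype embryos, so it lay apart from all of them. *mir10c*, listed at 0 at 21 hpf and at 8.75 FPKM at 18 hpf in Tbx5b-deficient embryos, a difference of −8.75 FPKM, was at 10.1 FPKM and listed at 0 in Tbx5a-deficient embryos. *mir133a-1*, with a difference of −7.95 FPKM, and *mirlet7j*, with −107 FPKM, were both listed at 0 at 21 hpf in Tbx5b-deficient embryos. In double-deficient embryos they were at 8.16 and 41.7 FPKM at 21 hpf and listed at 0 at 18 hpf. The differences between genotypes were not tested over libraries. A group listed at 0 has bounds of 0, and all of these microRNAs share their listed loci with other genes.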

How the results depend on the processing

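The 65 changed genes became 39 (36 higher, 3 lower) with a limit of 10 FPKM and 171 (142 higher, 29 lower) without the bounds. The 7 lower genes became 15 with loci of any length and 12 when both groups were scaled to the same total FPKM. Among alternatives chosen after seeing the data, 4 lower genes were left without groups listed at 0, 4 without shared loci and 3 among protein-coding genes. The Spearman correlations with Tbx5a-deficient and double-deficient embryos, 0.0547 and 0.0211, were below Pearson's 0.33 and 0.31. Scaling to the same total left 47 higher genes, with 10 named genes no longer passing, *mybphb*, *aqp3a* and *pts* among them. A pseudocount of 5 also lost 10 named genes, including *hoxb13a*, *per3*, *egln3* and *slc4a1a*. Of the 180 named genes, not all of which were called, scaling to the same upper quartile, by a factor of 0.995, lost none. Centring on the median lost only *egln3*. No called gene could change sign under the alternatives that were run, since the largest scaling shifted log2 ratios by about 0.18. Of 40 list medians, 8 moved by more than 0.2 at 10 FPKM or more, pigment to 0.42 and endothelial genes to −0.18. No paired analysis was possible because the pooled columns carry no replicate number, and for the same reason no single library could be left out. Median bounds of genes at 10 FPKM or more at 21 hpf part at a ratio of 2.57. For a gene with such bounds a smaller change was not detectable.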

Other observations

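Some further members of the lists had large ratios without passing the rule. *sesn3*, a stress-induced sestrin, was at 36.3 FPKM at 21 hpf and 84.6 FPKM at 18 hpf in Tbx5b-deficient embryos (log2 ratio −1.20). The hatching enzyme gene *he2*, whose listed locus is shared by 4 genes, was at 67.1 and 14.2 FPKM (2.16), and the epidermal keratin gene *krt91* at 249 and 98.1 FPKM (1.33). *krt91* was at 92.7 and 179 FPKM in Tbx5a-deficient, 142 and 157 FPKM in double-deficient and 225 and 129 FPKM in wildtype embryos. These values were not tested.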
